A study of Homo sapiens with 4 samples.

Results

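The heat shock factors HSF1, HSF2 and HSF4 and 3 genes grouped with them, namely HSBP1, IER5 and EID3, were examined in RNA sequencing libraries of 2 human cancer cell lines. Whether EID3 depends on HSF1 was not tested. These 6 genes were taken by their symbols from a table of 61806 genes, and each symbol gave 1 row. MDA-MB-231, a breast cancer line, and MDA-MB-435, a line labelled as melanoma, were each sequenced as a control and after CPYPP, a small molecule inhibitor of DOCK proteins, which are exchange factors that switch on Rac GTPases. The dose of CPYPP was 10 µM and the treatment lasted 6 h, and the cells are labelled wild type throughout. There were 4 libraries of poly(A) RNA, 1 per condition, so no replicate check exists within a line.

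HSF1 is the main activator of the heat shock response. In unstressed cells it is held inactive by chaperones such as HSP70, HSP90 and the chaperonin TRiC, and when unfolded proteins occupy these chaperones it forms trimers, enters the nucleus and binds heat shock elements, which are inverted repeats of the bases GAA. Its activity is set largely on the protein, by release from chaperones, phosphorylation, acetylation and degradation. HSF2 can join HSF1 in mixed trimers and is itself regulated through its abundance, and HSF4 is best known from the lens. HSBP1 binds the trimerization domain of HSF1 and dampens it. IER5 is an HSF1 target whose product recruits the phosphatase PP2A to HSF1. EID3 (NSMCE4B) is a relative of the EP300 inhibitor EID1 and of NSMCE4A, a subunit of the SMC5/6 complex that acts in DNA repair.

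Promoter windows from RefSeq on GRCh38.p14, reaching from 250 bases before to 50 bases after the start of a transcript, were found for 4 of the 6 genes, HSF2, HSF4, HSBP1 and IER5. Each window was searched on both strands for a heat shock element with 2 facing units (GAANNTTC or TTCNNGAA) and for one with 3 units (GAANNTTCNNGAA or TTCNNGAANNTTC), which contains the former. The only match among the 4 genes was a 2-unit element in the IER5 window, between bases -226 and -219 from the start. A match to the 2-unit element is common, since 16.2% of 27305 genes with a window held one and 0.608% held the 3-unit element. Among 25 HSF1 target genes with a window, 17 (68.0%) held the 2-unit and 8 (32%) the 3-unit element. The sequences upstream of IER5 and HSF2, both of which were higher after CPYPP, are shown on the plus strand beside the part of the HSPA6 promoter that holds a 3-unit element, at chr1:161524440-161524499. The IER5 sequence lies at chr1:181088450-181088699 and that of HSF2 at chr6:122399301-122399550. Capitals mark the bases of the GAA and TTC units in matched elements, and HSF2 has none.
IER5: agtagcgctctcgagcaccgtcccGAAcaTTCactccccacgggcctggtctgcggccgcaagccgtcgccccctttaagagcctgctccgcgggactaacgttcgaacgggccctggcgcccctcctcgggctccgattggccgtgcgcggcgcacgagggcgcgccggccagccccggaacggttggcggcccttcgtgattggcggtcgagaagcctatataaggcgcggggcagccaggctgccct
HSF2: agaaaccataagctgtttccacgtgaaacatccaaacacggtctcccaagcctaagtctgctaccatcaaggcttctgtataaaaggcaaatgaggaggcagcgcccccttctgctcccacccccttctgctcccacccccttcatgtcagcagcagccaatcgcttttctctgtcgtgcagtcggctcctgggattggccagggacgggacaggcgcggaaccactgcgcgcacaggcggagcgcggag
HSPA6: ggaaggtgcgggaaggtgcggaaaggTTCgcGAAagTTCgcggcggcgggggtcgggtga

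Reads counted on genes came to between 17196385 and 22663954 per library. The labels of the lines were checked against marker genes. SOX10, a melanocyte factor, had 0 and 1 counts in MDA-MB-231, against 3031 and 707 for MDA-MB-435, and the epithelial cadherin CDH1 had 837 and 464 counts in MDA-MB-231 and 0 in each MDA-MB-435 library. The pigment genes PMEL, MLANA and TYR had at most 14 counts in MDA-MB-435. Among the melanocyte markers the lines were separated mainly by SOX10, and the summed level in MDA-MB-231 came from the other markers. The summed level of 6 melanocyte markers went from 216 to 103 CPM with CPYPP in MDA-MB-435 and from 72.7 to 44.6 CPM in MDA-MB-231. In the fit described next 2 of the 5 fitted markers were called lower, against 2.87% of all genes, and 4.4% of all genes were called higher. In MDA-MB-231, 1 of the 3 markers tested was more than 2-fold higher, against 5.32% of all genes, and their median log2 fold change was 0.21. The summed level of 6 epithelial markers went from 1820 to 1630 CPM in MDA-MB-231, and that of MDA-MB-435 from 291 to 247 CPM, and 0 of 6 were called. Whether these shifts bear on the results for the heat shock factors was not tested.

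Levels are given as CPM, the counts per 1000000 counts of a library whose size was scaled by TMM. A fold change is the ratio of the CPYPP to the control level in a line, with its 95% exact binomial (Clopper-Pearson) interval in parentheses, which covers counting error only and not the spread between cultures. A gene was called past 2-fold within a line by size alone, if it had at least 10 counts in 1 of the line's libraries. The common effect of CPYPP was tested over both lines with edgeR's quasi-likelihood test, in which the line is a block, the 2 lines are the only repeat and 1 residual degree of freedom remains. The test also draws on variance estimated over all fitted genes. Its standard errors and p-values therefore do not measure the spread between the 2 lines for a single gene alone.

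Among the 6 genes, EID3 was past 2-fold in MDA-MB-231, and EID3 and IER5 were past it in MDA-MB-435. All these were higher after CPYPP and 0 were lower. Of all genes, 5.32% were past 2-fold higher and 5.52% lower among 16441 in MDA-MB-231, and 3.45% and 10.9% among 16527 in MDA-MB-435. In the common effect EID3, IER5 and HSF2 were called higher at an adjusted p under 0.05, against 4.4% of 16838 genes called higher and 2.87% called lower. When libraries were scaled by their total counts, the share of higher calls among all calls of the common effect went from 60.5% to 43.7%, and the same 3 genes of the set were called. HSF1, HSF4 and HSBP1 did not pass the test. The data come from whole cultures, so that fewer cells of a type and less RNA per cell cannot be told apart.

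**Figure D1:**
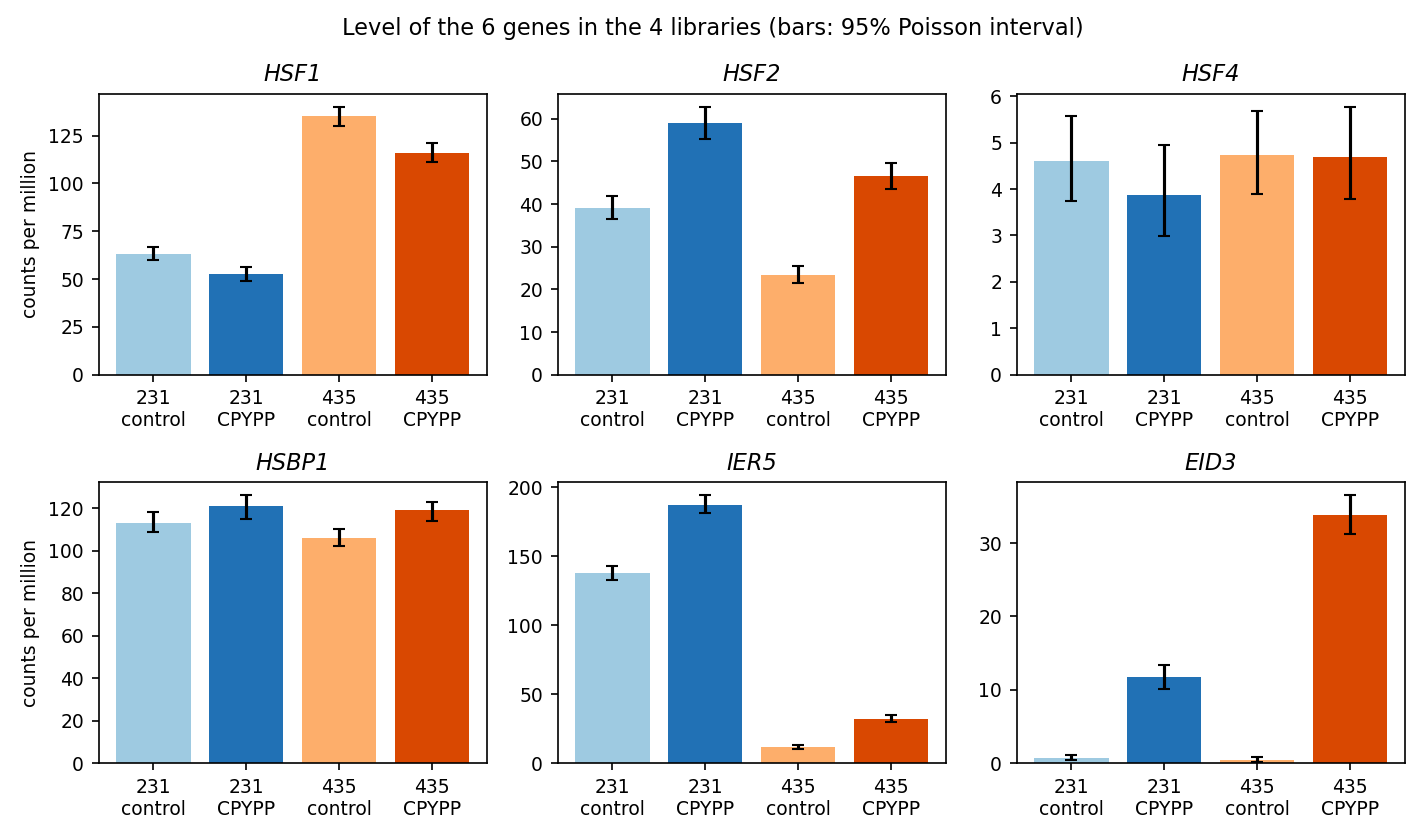
Level of each of the 6 genes in the 4 libraries, in CPM on a linear axis, with 95% exact Poisson intervals for counting error as bars. EID3 moved from under 1 CPM in both controls to 11.7 CPM in MDA-MB-231 and 33.8 CPM in MDA-MB-435 after CPYPP, while HSF4 stayed between 3.87 and 4.73 CPM.

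HSF1 mRNA was slightly lower in the CPYPP library of both lines, and its common effect did not pass the test. HSF1 (ENSG00000185122, GRCh38, chromosome 8, 144291591 to 144314720, plus strand) had 1414 counts in the MDA-MB-231 control and 870 after CPYPP, or 63.1 and 52.6 CPM. In MDA-MB-435 it had 3198 and 2242 counts, or 135 and 116 CPM. The CPYPP library was the lower one in both lines, with fold changes of 0.834 (0.765 to 0.908) and 0.858 (0.812 to 0.906). Both intervals lay below 1, but the common effect, a log2 fold change of -0.24 with a standard error of 0.112, was not called by edgeR (adjusted p = 0.253). The fold changes of HSF1 lay at percentiles 26.4 and 39.4 of all tested genes, so decreases of this size were common in both lines. The fold changes of the lines differed by a ratio of 1.03 (0.931 to 1.14), an interval that includes no difference.

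The level of HSF1 separated the lines more than the treatment did. Untreated MDA-MB-435 held 2.14 times (2.01 to 2.28) the HSF1 level of untreated MDA-MB-231, and the ratio after CPYPP was 2.2 (2.03 to 2.38). Of 18269 genes, 23.8% were past 2-fold higher in untreated MDA-MB-435 and 21.5% lower. Reads of 2 neighbours on the opposite strand could bear on the HSF1 row, because the strand setting of the counting is not stated. DGAT1, an enzyme of triglyceride synthesis, overlaps the end of HSF1 by 137 bases and had fold changes of 0.919 (0.770 to 1.10) and 1.02 (0.899 to 1.15). BOP1, a ribosome assembly factor, starts 152 bases from HSF1 and had 1739 and 982 counts in MDA-MB-231, against 3588 and 2756 for MDA-MB-435, which gave fold changes of 0.765 (0.707 to 0.828) and 0.940 (0.894 to 0.988).

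HSF2 was higher after CPYPP in both lines. HSF2 (ENSG00000025156, chromosome 6, 122399551 to 122433119, plus strand) had 878 and 975 counts in MDA-MB-231, or 39.2 and 59.0 CPM, and 553 and 900 counts in MDA-MB-435, or 23.3 and 46.5 CPM. The 2 CPYPP libraries were above the 2 control libraries, with no overlap. MDA-MB-231 showed a fold change of 1.5 (1.37 to 1.65) and MDA-MB-435 one of 1.99 (1.79 to 2.22), at rank 1953 and rank 575 from the highest. In MDA-MB-435 the value lay just under 2 and reached 2.05 with DESeq2 size factors and 2.07 with TMM factors computed within each line, the latter chosen after seeing the data. The common effect was a log2 fold change of 0.79 with a standard error of 0.151 (edgeR, adjusted p = 0.0116). The fold change was 1.32 times (1.15 to 1.52) larger in MDA-MB-435 than in MDA-MB-231, a difference beyond counting error that could not be tested between cultures. Untreated MDA-MB-231 had 1.68 times (1.51 to 1.87) the HSF2 level of untreated MDA-MB-435. One unnamed gene, 3669 bases from HSF2 on the opposite strand, had 55 to 71 counts per library.

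HSF4 was the least abundant of the 3 factors. HSF4 (ENSG00000102878, chromosome 16, 67164681 to 67169945, plus strand) had 103 and 64 counts in MDA-MB-231, against 112 and 91 for MDA-MB-435, and its level was 4.60, 3.87, 4.73 and 4.70 CPM in that order. All 4 values lay close together. Its fold change was 0.842 (0.607 to 1.16) and 0.994 (0.746 to 1.32), and the common log2 fold change was -0.12 with a standard error of 0.309 (edgeR, adjusted p = 0.88). At these counts a change within those intervals was not detectable. By the positions in the deposited table, HSF4 sits between 2 genes of the same strand. They are FBXL8, an F-box protein that ends 110 bases before it, and NOL3, an inhibitor of apoptosis that starts 208 bases after it. In RefSeq, however, HSF4 starts at 67163761, within the span of FBXL8. An unnamed gene of the same strand overlaps HSF4 by 1135 bases and had at most 9 counts. How many HSF4 reads are counted on these genes or lost was not tested. FBXL8 had 66 and 28 counts in MDA-MB-231, against 117 and 62 for MDA-MB-435, with fold changes of 0.575 (0.356 to 0.907) and 0.648 (0.469 to 0.890). NOL3 had fold changes of 1.09 (0.908 to 1.3) and 0.831 (0.696 to 0.990), and TRADD, an adaptor of the TNF receptor 4771 bases away on the opposite strand, 0.981 (0.748 to 1.28) and 0.962 (0.767 to 1.20).

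**Figure D2:**
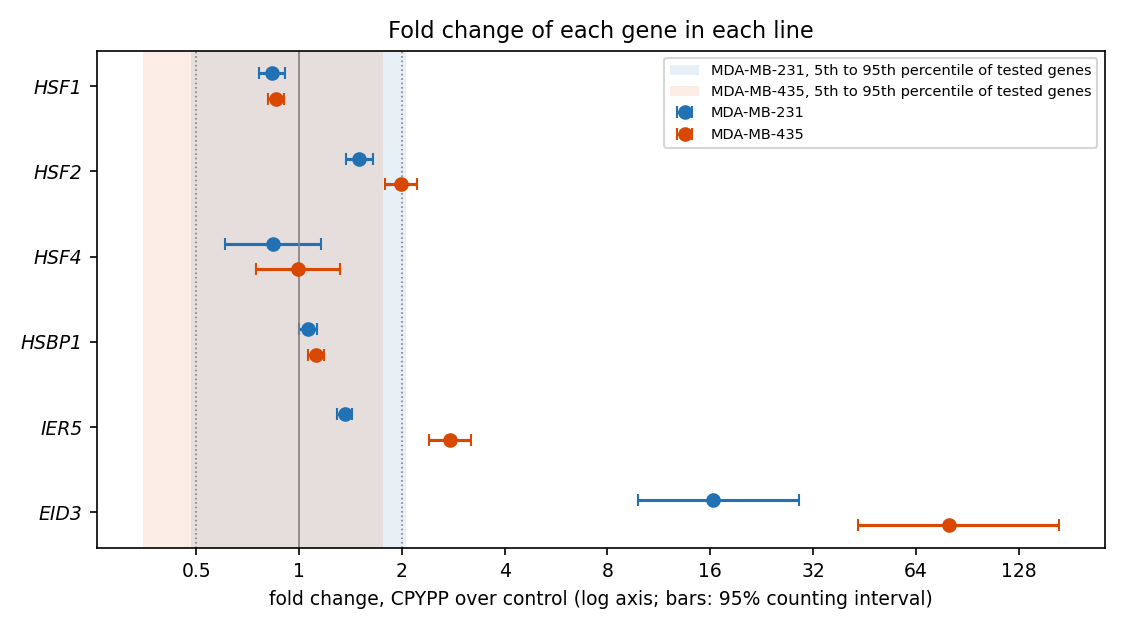
Fold change of each of the 6 genes, CPYPP over control, in each line on a log axis, with 95% exact binomial intervals for counting error. EID3 lies at 16.3 and 80.0, IER5 at 1.36 and 2.77 and HSF2 at 1.5 and 1.99, while HSF1 lies below 1 in both lines.

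Other heat shock factors were not measurable. HSF5 had 0 counts in every library, and the X-linked HSFX1, HSFX2, HSFX3 and HSFX4 had at most 7. A count of 0 allows up to 3 counts, or between 0.127 and 0.181 CPM in these libraries. HSF1, HSF2 and HSF4 were therefore the measurable factors, and their levels were compared after division by exon length, as CPM per kilobase of the exon length in the deposited table.

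The balance of HSF1 and HSF2 lay further toward HSF2 after CPYPP in both lines, while the order of the pair in MDA-MB-231 depended on the length used. The same length was used for a gene in every library, so the choice between fixed lengths cannot alter the relative change of their ratio with CPYPP. A shift between transcripts of unequal length was not tested. In MDA-MB-231, HSF1 was at 11.9 and HSF2 at 14.5 CPM per kilobase in the control, and at 9.92 and 21.9 after CPYPP. In MDA-MB-435, HSF1 was at 25.4 and HSF2 at 8.65 in the control, and at 21.8 and 17.2 after CPYPP. HSF4 lay between 0.989 and 1.21. The level of HSF1 per length was thus 0.819 times that of HSF2 in the MDA-MB-231 control and 0.454 times after CPYPP, and in MDA-MB-435 the ratio went from 2.94 to 1.27. The share of HSF2 in the summed level of the 3 factors went from 52.6% to 66.7% for MDA-MB-231, while MDA-MB-435 had 24.5% and 42.8%. The share of HSF4 was between 2.98% and 4.26%.

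The exon length of HSF1 in the table, 5305 bases, joins the exons of many transcripts, of which 3 of 14 in GENCODE v29 are coding, whereas its longest coding transcript there has 2142 bases. For HSF2 the table gives 2697 bases and the longest coding transcript has 2643. With the longest coding transcript as the length, an alternative chosen after seeing the data, HSF1 was above HSF2 in all 4 libraries. The ratio of HSF1 to HSF2 then went from 1.99 to 1.1 in MDA-MB-231, and that of MDA-MB-435 from 7.14 to 3.07, and the share of HSF2 was 31.4% and 45.2% in the former line and 11.8% and 23.5% in the latter. In CPM, with no division by length, HSF1 was also above HSF2 in the MDA-MB-231 control and below it after CPYPP. HSF4 was the lowest of the 3 by each of these measures.

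**Figure D3:**
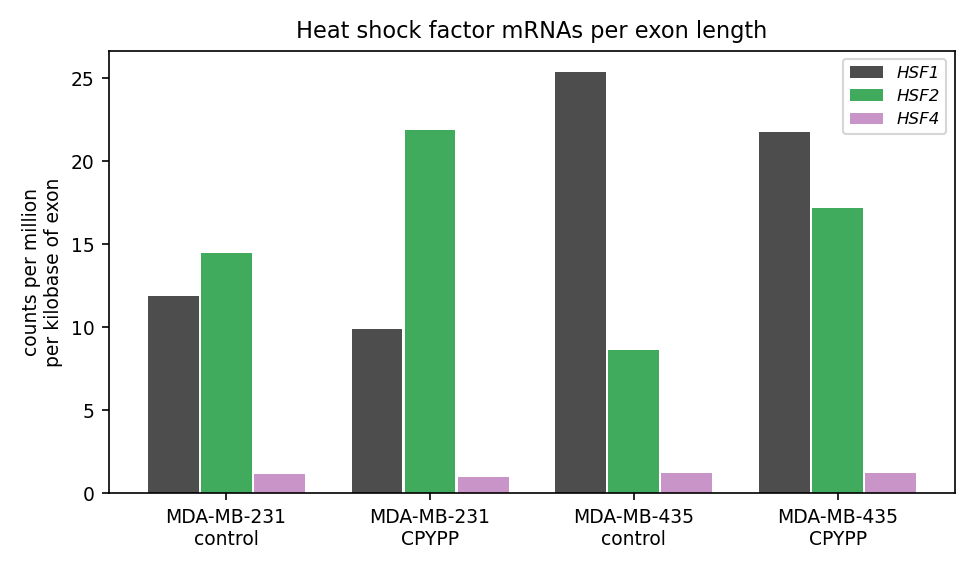
Levels of HSF1, HSF2 and HSF4 in the 4 libraries, in CPM per kilobase of the exon length in the deposited table. HSF2 goes from 14.5 to 21.9 in MDA-MB-231 and from 8.65 to 17.2 in MDA-MB-435, and its place above HSF1 in MDA-MB-231 turns with the length of the longest coding transcript.

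HSBP1, the small protein that dampens HSF1, was nearly even over the libraries. HSBP1 (ENSG00000230989, chromosome 16, 83719311 to 83819737, plus strand) had 2538 and 1993 counts in MDA-MB-231, against 2510 and 2295 for MDA-MB-435, or 113, 121, 106 and 119 CPM in that order. The fold change was 1.06 (1.00 to 1.13) and 1.12 (1.06 to 1.18). The common log2 fold change of 0.13, with a standard error of 0.108, was not called (edgeR, adjusted p = 0.576). The table gives HSBP1 a span of 100427 bases against 11760 in RefSeq, and an exon length of 9862 bases that includes exons upstream of the RefSeq span, which lowers its level per length if they are little used. CDH13, which overlaps this span, had at most 4 counts. HSBP1L1, a paralog of HSBP1, had 433 and 360 counts in MDA-MB-231, against 11 and 2 for MDA-MB-435.

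IER5 was higher after CPYPP in both lines, and more so in MDA-MB-435. IER5 (ENSG00000162783, chromosome 1, 181088700 to 181092900, plus strand) is a gene of 1 exon and had 3090 and 3095 counts in MDA-MB-231, or 138 and 187 CPM, and 275 and 622 counts in MDA-MB-435, or 11.6 and 32.1 CPM. Both MDA-MB-435 libraries lay below both MDA-MB-231 libraries. MDA-MB-231, with nearly equal raw counts in libraries of unequal depth, showed a fold change of 1.36 (1.29 to 1.43), and MDA-MB-435 one of 2.77 (2.40 to 3.20). These values ranked 2709 and 259 from the highest. The common effect was a log2 fold change of 0.90 with a standard error of 0.198 (edgeR, adjusted p = 0.0223). The response of MDA-MB-435 exceeded that of MDA-MB-231 by a ratio of 2.04 (1.75 to 2.37), which was not tested between cultures.

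Untreated MDA-MB-231 held 11.9 times (10.5 to 13.5) the IER5 level of untreated MDA-MB-435. With CPYPP the level of MDA-MB-435 relative to MDA-MB-231 went from 0.0841 (0.0741 to 0.0952) to 0.172 (0.157 to 0.187), so that treated MDA-MB-435 cells were still below untreated MDA-MB-231 cells. An unnamed gene on the opposite strand, 160 bases from IER5, had at most 10 counts. The immediate early relatives of IER5 did not pass the test. IER2 had fold changes of 0.970 (0.855 to 1.10) and 0.777 (0.714 to 0.844), and IER5L 1.11 (0.710 to 1.71) and 1.58 (1.13 to 2.22) (edgeR common effect, adjusted p = 0.469 and 0.588).

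Subunits of PP2A, the phosphatase that IER5 brings to HSF1, were taken as a list of 8 genes. Of the 7 tested in each line, 0 were past 2-fold higher, and PPP2R2C, a regulatory subunit with 12 and 4 counts, was past 2-fold lower in MDA-MB-435 at 0.408, with an interval that includes no change (0.0959 to 1.35). In MDA-MB-231 the same gene had 29 and 40 counts and a fold change of 1.87 (1.13 to 3.13). Their median log2 fold change was 0.32 in MDA-MB-231, against 0.36 for MDA-MB-435, beside -0.02 and -0.09 over all genes. In the common effect 2 of 7 were called higher, against 4.4% of all genes. The regulatory subunit PPP2R2A, which belongs to the B55 family through which IER5 acts, had fold changes of 1.44 (1.36 to 1.52) and 1.83 (1.73 to 1.94) and a common log2 fold change of 0.70 (edgeR, adjusted p = 0.00679). Of the other B55 genes, PPP2R2D had 0.805 (0.728 to 0.889) and 1.28 (1.14 to 1.44) and a common log2 fold change of 0.02 (edgeR, adjusted p = 0.977), PPP2R2C was not called, and PPP2R2B had at most 4 counts. The catalytic subunit PPP2CB had fold changes of 1.33 (1.26 to 1.41) and 1.57 (1.47 to 1.67) and a common log2 fold change of 0.53 (adjusted p = 0.0212).

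EID3 showed the largest change of the 6 genes. EID3 (ENSG00000255150, chromosome 12, 104303739 to 104305205, plus strand) had 16 counts in the MDA-MB-231 control and 193 after CPYPP, and 10 and 654 counts in MDA-MB-435. Its level went from 0.714 to 11.7 CPM in MDA-MB-231 and from 0.422 to 33.8 CPM in MDA-MB-435. The controls of both lines were low and their ratio, MDA-MB-231 over MDA-MB-435, was 1.69 (0.722 to 4.17). After CPYPP the level in MDA-MB-435 was 2.89 times (2.46 to 3.42) that in MDA-MB-231. MDA-MB-231 showed a fold change of 16.3 (9.81 to 29.2) and MDA-MB-435 one of 80.0 (43.2 to 168), ranks 9 and 5 from the highest. The common log2 fold change was 5.19 with a standard error of 0.418 (edgeR, adjusted p = 7.58e-05). MDA-MB-435 responded more strongly by a ratio of 4.90 (2.19 to 11), a difference beyond counting error that was not tested between cultures. EID3 is also in the study's own list of raised genes, which was drawn from these libraries and is not independent evidence.

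EID3 is a single exon of 1467 bases that lies inside TXNRD1, on the same strand. TXNRD1, on chromosome 12 from 104215779 to 104350307, encodes the cytosolic thioredoxin reductase, a selenoprotein that keeps thioredoxin reduced. In GENCODE v29, 0 of the EID3 bases belong to an exon of TXNRD1, and the nearest host exons are 12634 bases before and 4553 bases after EID3. TXNRD1 was itself higher after CPYPP. It had 24308 and 60158 counts in MDA-MB-231, against 14383 and 59957 for MDA-MB-435, and its fold change was 3.35 (3.3 to 3.4) and 5.10 (5.01 to 5.20), with a common log2 fold change of 2.05 (edgeR, adjusted p = 4.6e-05).

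EID3 rose by more than its host gene. Per 1000 TXNRD1 counts there were 0.658 EID3 counts in the MDA-MB-231 control and 3.21 after CPYPP, and 0.695 and 10.9 in MDA-MB-435. The fold change of EID3 exceeded that of TXNRD1 by a ratio of 4.87 (2.93 to 8.12) in MDA-MB-231, against 15.7 (8.40 to 29.3) for MDA-MB-435. Another row on the same strand inside TXNRD1, the ribosomal protein pseudogene RPL18AP3, had 688 and 553 counts in MDA-MB-231, against 753 and 684 for MDA-MB-435, with fold changes of 1.09 (0.972 to 1.22) and 1.11 (1.00 to 1.23), although reads of its parent gene may be counted on it. An unnamed gene on the opposite strand there had 34 and 73 counts in MDA-MB-231, against 21 and 39 for MDA-MB-435. It was past 2-fold higher in both lines, with fold changes of 2.91 (1.91 to 4.51) and 2.27 (1.3 to 4.07). Its common effect was not called (edgeR, adjusted p = 0.0791). How many EID3 reads come from unspliced TXNRD1 transcripts was not tested.

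**Figure D4:**
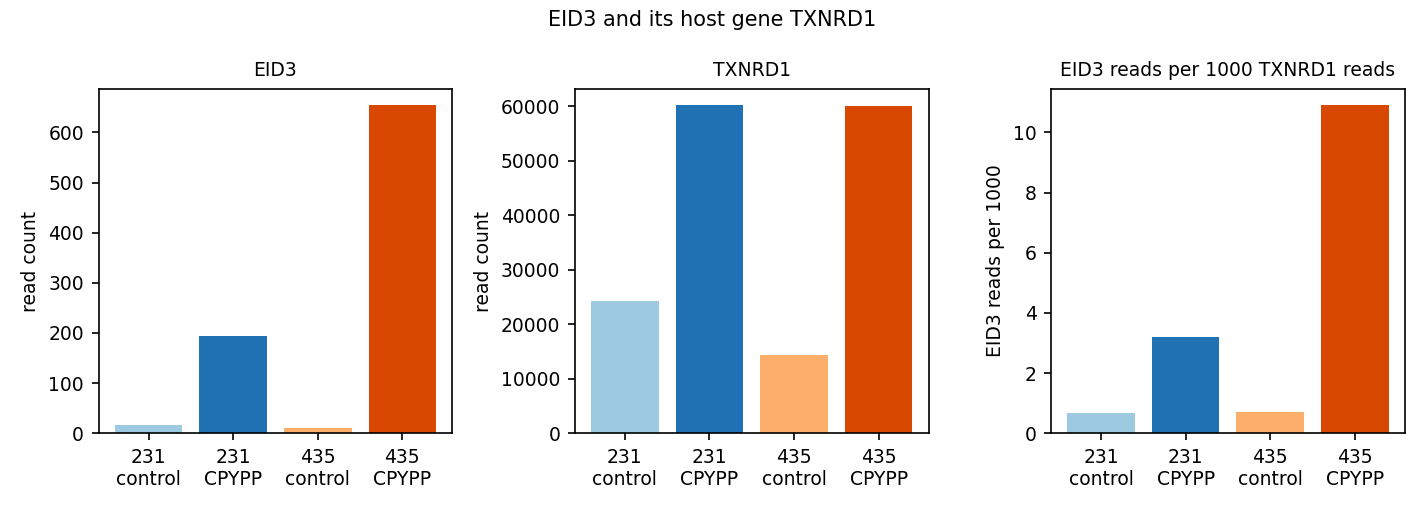
Counts of EID3 and of its host gene TXNRD1 in the 4 libraries, and EID3 counts per 1000 TXNRD1 counts. The ratio goes from 0.658 to 3.21 in MDA-MB-231 and from 0.695 to 10.9 in MDA-MB-435.

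The relatives of EID3 were not higher after CPYPP. EID1 had fold changes of 0.848 (0.808 to 0.890) and 0.767 (0.733 to 0.802), and EID2 0.723 (0.625 to 0.835) and 0.709 (0.562 to 0.893). EID2B was the 1 paralog past 2-fold the same way in both lines, with 136 and 46 counts in MDA-MB-231, against 48 and 12 for MDA-MB-435, and fold changes of 0.458 (0.321 to 0.645) and 0.306 (0.148 to 0.585). Its common effect was not called (edgeR, adjusted p = 0.0676). NSMCE4A, the subunit of the SMC5/6 complex that EID3 resembles, had fold changes of 0.663 (0.599 to 0.733) and 0.794 (0.712 to 0.884) and was not called either (adjusted p = 0.0829). Of 8 genes of the SMC5/6 complex, 0 were past 2-fold in a line and 0 were called in the common effect. Their median log2 fold change was -0.04 in MDA-MB-231, against 0.20 for MDA-MB-435. By comparison, 5.32% of all genes were past 2-fold higher and 5.52% lower for MDA-MB-231, against 3.45% and 10.9% for MDA-MB-435. The common effect was called higher for 4.4% of all genes and lower for 2.87%. Whether 0 of 8 differs from these shares was not tested.

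The order of the 6 genes by level per length differed between the lines. In the MDA-MB-231 control it was IER5, HSF2, HSF1, HSBP1, HSF4 and EID3, from 32.8 to 0.487 CPM per kilobase, and the intervals of HSF1 and HSBP1 overlapped. After CPYPP the order was IER5, HSF2, HSBP1, HSF1, EID3 and HSF4, from 44.6 to 0.989. In the MDA-MB-435 control it was HSF1, HSBP1, HSF2, IER5, HSF4 and EID3, from 25.4 to 0.288. After CPYPP EID3 came first with 23 CPM per kilobase, ahead of HSF1 with 21.8, and the intervals of these neighbours overlapped. It was followed by HSF2, HSBP1, IER5 and HSF4, the last at 1.20. All other neighbours in these 4 orders had counting intervals that did not overlap. The orders also depended on the length. With the longest coding transcript, HSF1 came before HSF2 in MDA-MB-231 and first in both MDA-MB-435 libraries, with EID3 next to it after CPYPP at 23 against 54.1 CPM per kilobase. In CPM without length, EID3 in that library came after HSBP1, HSF1 and HSF2 and before IER5 and HSF4.

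Genes that HSF1 is known to activate were taken as a list of 29. In MDA-MB-231, 14 of 28 tested were past 2-fold higher and 0 lower, with a median log2 fold change of 1.03. In MDA-MB-435, 14 of 29 were past 2-fold higher and 0 lower, with a median of 0.98. Over all tested genes 5.32% and 3.45% were past 2-fold higher in these lines, with medians of -0.02 and -0.09, and 4.4% were called higher in the common effect. The common effect was called higher for 28 of 29, all but the small heat shock protein CRYAB, which had 3 and 0 counts in MDA-MB-231, against 73 and 88 for MDA-MB-435. The study's list of raised genes holds 7 of these 29, and without them the medians were 0.77 and 0.88 and 7 genes were past 2-fold higher in each line. The remaining genes are not independent evidence either, since the lists were chosen with earlier results of these data known.

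The 8 genes of that list with the largest changes in both lines were HSP70 genes, cochaperones and stress proteins. The inducible chaperones HSPA1A and HSPA1B, near-identical copies between which reads may be split, had fold changes of 43.0 and 43.8 in MDA-MB-231, against 104 and 112 for MDA-MB-435. HSPA6, a strictly inducible HSP70, had 12 and 1639 counts in MDA-MB-231, or 185 times (106 to 359) the control level, and 1 and 67 counts in MDA-MB-435. The cochaperone DNAJB1 had fold changes of 13.2 (12.8 to 13.7) and 17.6 (17.1 to 18.1), and ZFAND2A, a proteasome-associated stress protein, 13 (11.5 to 14.7) and 31.8 (27.2 to 37.5). BAG3, a cochaperone of selective autophagy, had 4.56 (4.34 to 4.79) and 5.23 (5.02 to 5.45), HSPH1, the HSP110 exchange factor, 3.71 (3.61 to 3.82) and 3.79 (3.72 to 3.87), and the death effector domain gene DEDD2 3.63 (3.21 to 4.13) and 3.42 (3.10 to 3.78).

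Chaperones that bind and restrain HSF1 formed a list of 17, which shares genes with the target list and holds 4 from the study's own list. In each line 5 were past 2-fold higher, namely HSP90AA1, HSPA1A, HSPA1B, HSPA8 and DNAJB1, and 0 were lower. The median log2 fold change was 0.43 in each line, and 9 of 17 were called higher in the common effect. The medians over all genes were -0.02 and -0.09, MDA-MB-231 first. Past 2-fold higher were 5.32% and 3.45% of all genes in that order, and 4.4% were called higher. HSP90AA1, the inducible HSP90, had fold changes of 2.89 (2.86 to 2.91) and 2.93 (2.90 to 2.96). HSPA8, the constitutive HSP70, had 2.09 (2.07 to 2.11) and 2.39 (2.37 to 2.41). Of the 8 subunits of the chaperonin TRiC only TCP1 was called, with 1.49 (1.45 to 1.53) and 1.67 (1.63 to 1.72) and an edgeR adjusted p of 0.00649.

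Genes for the enzymes that modify or degrade HSF1 were mostly not called. Of 19 kinases, acetyltransferases, deacetylases and degradation factors, 0 were past 2-fold in a line, and the median log2 fold change was 0.06 in each. Over all genes 4.4% were called higher and 2.87% lower in the common effect. The common effect was called higher for the acetyltransferase CREBBP, with fold changes of 1.69 (1.58 to 1.81) and 1.37 (1.28 to 1.47), and for VCP, the segregase of ubiquitinated proteins, with 1.33 (1.3 to 1.37) and 1.70 (1.66 to 1.74). It was called lower for the mitotic kinase PLK1, with 0.561 (0.525 to 0.598) and 0.624 (0.601 to 0.648). EP300, the acetyltransferase after which the EID genes are named, had 1.70 (1.59 to 1.82) and 1.08 (1.03 to 1.13) and was not called (edgeR, adjusted p = 0.115).

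The genes whose pair of fold changes was nearest to that of EID3 were sought among 14262 genes with at least 10 counts in a library of each line, by the distance between pairs of log2 fold changes. They were CHAC1, an enzyme that degrades glutathione, at a distance of 1.07, ZFAND2A at 1.37, HSPA1A at 1.45, HSPA1B at 1.5 and the antisense RNA SLC7A11-AS1 at 1.52. CHAC1 had 42 and 242 counts in MDA-MB-231, against 15 and 1054 for MDA-MB-435, with fold changes of 7.81 (5.61 to 11.1) and 86.0 (51.9 to 154). SLC7A11-AS1 had 31 and 145 counts in MDA-MB-231, against 2 and 123 for MDA-MB-435. Its control count there was raised to 3 for the fold change, so its distance and place are not exact, and without a stated strand setting its reads cannot be told apart from those of genes it overlaps. The same 5 genes were nearest among 11084 genes with at least 50 counts. EID3 itself had 16 and 10 counts in the controls, and its fold change in MDA-MB-435 has an interval of 43.2 to 168. The order of these distances is therefore not settled beyond counting error. With ranks of 9 and 5 from the highest, EID3 also has few genes with changes of similar size. Of the 14262 genes, 161 were past 2-fold higher in both lines and 245 lower, and EID3 was the 1 member of the set among them.

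IER5 lay in a dense region of that plane, and its nearest genes depended on the count minimum. GRIN3A, ANKRD11P2, GRPEL2, NQO2 and AK4P3 lay within a distance of 0.11, and of these GRIN3A and AK4P3 had at most 24 counts in any library. With at least 50 counts the nearest were GRPEL2, NQO2, CLK1, TUBE1 and ATF4, within 0.16. GRPEL2, a cochaperone of the mitochondrial HSP70, had fold changes of 1.27 (1.16 to 1.39) and 2.77 (2.61 to 2.95), NQO2, a quinone reductase, 1.39 (1.25 to 1.54) and 2.60 (2.33 to 2.90), and ATF4, the transcription factor of the integrated stress response, 1.5 (1.43 to 1.57) and 2.66 (2.58 to 2.74).

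**Figure D5:**
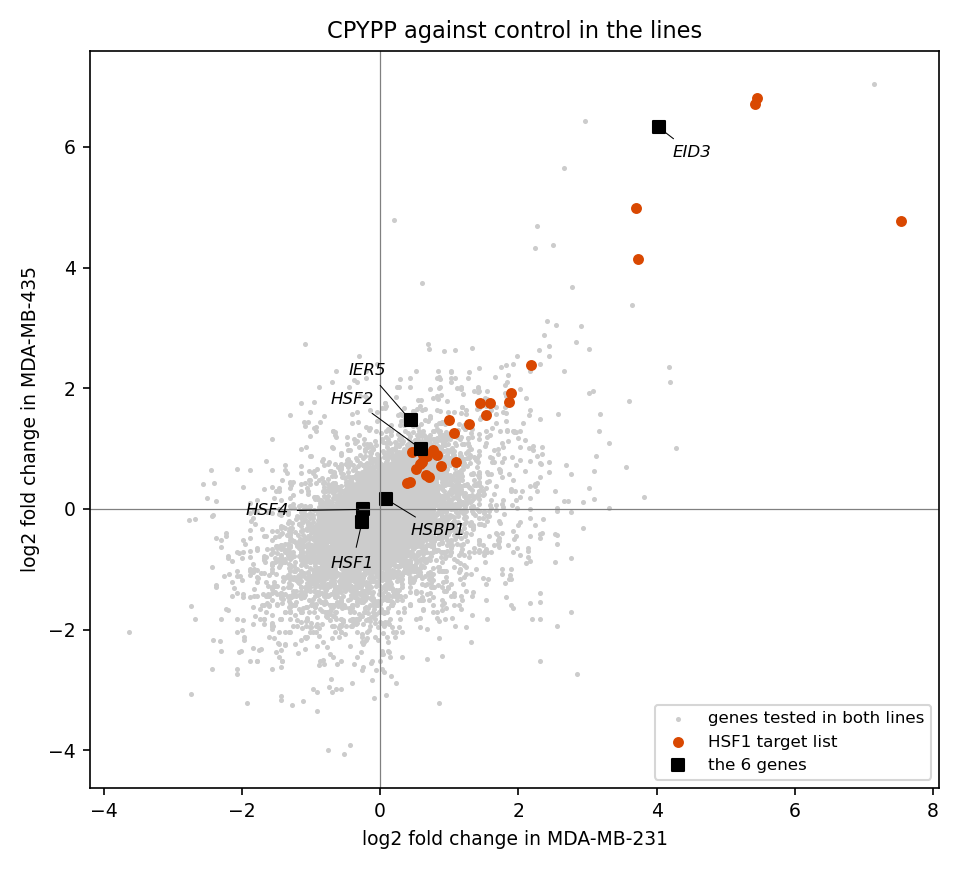
Log2 fold change after CPYPP in MDA-MB-435 against that in MDA-MB-231 for 14262 genes with at least 10 counts in a library of each line, with the 6 genes marked. EID3 lies at 4.03 and 6.32, far from the bulk of genes, IER5 at 0.44 and 1.47 and HSF2 at 0.59 and 0.99, and HSF1 at -0.26 and -0.22.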

How the data were processed

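Control and CPYPP cultures of the lines MDA-MB-231 and, as labelled, MDA-MB-435 gave poly(A) RNA that was sequenced in 4 libraries, 1 per condition. The protocol texts mention MDA-MB-435 alone, also for the samples of the other line, so the line was taken from each sample's own label. The authors deposited raw counts of reads on each gene, not normalized, after trimming, alignment and quantification by a service provider. The submitters' processing notes name cutadapt 1.9.1, HISAT2 2.2.1, HTSeq 0.6.1, DESeq2 and GRCh37.p13. The strand setting is not given in the sources used here. Of 58254 identifiers shared with GENCODE v29, 58241 (99.98%) have overlapping positions, so coordinates are those of GRCh38.

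Counts were analysed in R 4.3.3 (limma 3.58.1, edgeR 4.0.16, DESeq2 1.42.0) and Python 3.11.15 (scipy 1.17.1, pandas 2.3.3, numpy 2.4.6, matplotlib 3.10.9). TMM factors over the 4 libraries, from genes kept by filterByExpr, were between 0.961 and 1.05. Within a line, counts of 3 or fewer were set to 3 for fold changes. Ratios between the lines' fold changes have Wald intervals on the log scale, and intervals cover counting error only. The common effect was fitted with line and treatment as terms, with Benjamini-Hochberg adjustment over 16838 genes. The common dispersion was 0.0146. The depth of 17196385 to 22663954 counts leaves intervals several-fold wide for genes near 10 counts.

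The 6 genes and the gene lists were chosen with earlier results of these data known, and no set test was run. Genes were named if they were among the 6, lay within 5 kb of one with at least 10 counts in a library, were among the 5 nearest to EID3 or IER5 in the plane of the fold changes, were past 2-fold the same way in both lines within a list (at most 8 per list), or were paralogs of the 6. Others, such as the called PP2A subunits, CREBBP, VCP, PLK1, EP300 and TCP1, were chosen after their values were seen. Alternatives concerned scaling, filters, the fold threshold, the line block and DESeq2, and TMM within each line and the length of the longest coding transcript were added after seeing the data. The authors' GO annotation was not used.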

Additional observations from a re-analysis of the deposited data

Results flagged for a closer look

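In 2 genes of the lists around HSF1 the counting intervals of the fold change lay on opposite sides of 1 in the lines. PRKAA1, a catalytic subunit of the energy sensor AMPK, had a fold change of 0.933 (0.892 to 0.975) in MDA-MB-231, against 1.10 (1.05 to 1.15) for MDA-MB-435. PPP2R2D, a B55 regulatory subunit of PP2A, had 0.805 (0.728 to 0.889) in MDA-MB-231, against 1.28 (1.14 to 1.44) for MDA-MB-435. With 1 library per condition, neither difference was tested.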

How the results depend on the processing

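For each of the 6 genes, the fold change in each line stayed within its counting interval under total-count, DESeq2, upper-quartile and within-line TMM scaling. The calls of the common effect for the 6 genes were kept in the alternatives run, except that without a term for the line HSF2, IER5 and EID3 were no longer called (log2 fold changes of 0.75, 0.55 and 5.31, unadjusted p = 0.142, 0.734 and 0.00527 in edgeR). DESeq2 gave HSF4 no adjusted p. Without the line term edgeR called 0 genes higher and 0 lower, with 168 at an unadjusted p under 0.05, and the spread then includes the difference between the lines. The number of genes called lower in the common effect was 484, and 1087 with total counts, 807 with the upper quartile and 289 with the DESeq2 test.

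The numbers past 2-fold, 875 higher and 907 lower in MDA-MB-231, against 571 and 1805 for MDA-MB-435, depended on the filter and the threshold. With at least 10 counts in both libraries they were 490 and 289, and 341 and 767. With no filter they were 1667 and 1000, and 1026 and 2088. With the counting interval wholly past 2-fold they were 194 and 84, and 176 and 267. With a fold of 1.5 they were 1966 and 1993, and 1436 and 3424, and with a fold of 4 they were 219 and 99, and 127 and 282. The common effect, with its term for the line, pairs the control and CPYPP libraries of each line, and the labels give no replicate numbers for any other pairing. Depth limits HSF4 and the controls of EID3, with 16 and 10 counts.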
